A study of Homo sapiens with 16 samples.

Results

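The enzymes that set the local supply of active estrogen are encoded by a small group of genes, and 9 of them were followed here. They are the 17β-hydroxysteroid dehydrogenase genes HSD17B1, HSD17B2, HSD17B4, HSD17B8, HSD17B12 and HSD17B14, the sulfotransferase genes SULT1E1 and SULT1A1, and the steroid sulfatase gene STS. They were taken by symbol, 9 of the 21453 gene symbols in the expression tables, and each had a row in every table. Of the 9, 7 reached 1 RPKM in at least 2 libraries and were tested, while HSD17B2 and SULT1E1 did not.

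Polyadenylated RNA was sequenced from T-47D, an established breast cancer line, and ECC-1, an established endometrial cancer line, in 16 libraries. Both lines were held for 5 days in RPMI-1640 without phenol red and with 10% serum stripped of steroids by charcoal, in 100 mm dishes. For each line, 2 libraries were made after 8 h with 17β-estradiol (E2) at 10 nM, 2 with bisphenol A (BPA, a plastics monomer) at 100 nM, 2 with genistein (GEN, a soy isoflavone) at 100 nM, and 2 with the vehicle DMSO at 0.02%. Each tissue is represented by 1 line, so a difference between the lines cannot be told apart from one between the tissues. The labels do not say whether the 2 libraries of a group are separate cultures, and p-values then measure only the spread between these libraries, which may be technical.

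Estrone and estradiol are interconverted by 17β-hydroxysteroid dehydrogenases, some of which mainly reduce estrone to the potent estradiol while others mainly oxidize estradiol to the weak estrone. Sulfotransferases attach a sulfate group that keeps estrogens from binding their receptor, and steroid sulfatase removes it again. In breast and endometrium, the balance between these enzymes is a textbook determinant of how much active hormone a cell meets, and several of them also handle fatty acids, other steroids or drugs.

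Start-site sequence was at hand for 4 of the 9 genes (HSD17B4, HSD17B8, SULT1E1 and STS) in a RefSeq table on GRCh38.p14. The 250 bases before the start are shown for HSD17B4 and HSD17B8, which were both higher in T-47D, and for SULT1E1, which was near 0 in T-47D, so that genes on both sides of the difference between the lines are seen. They lie at chr5:119452247-119452496 on the plus strand, chr6:33204405-33204654 on the plus strand and chr4:69860146-69860395 on the minus strand, and each is written 5′ to 3′ along its gene. Capitals mark GGTCA (the half-site of an estrogen response element), TATAAA and CCAAT on either strand.
HSD17B4: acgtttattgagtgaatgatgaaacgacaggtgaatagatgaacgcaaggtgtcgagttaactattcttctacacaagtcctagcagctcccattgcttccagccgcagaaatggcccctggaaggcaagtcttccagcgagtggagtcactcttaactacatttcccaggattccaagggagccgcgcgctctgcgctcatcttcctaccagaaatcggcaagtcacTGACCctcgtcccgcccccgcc
HSD17B8: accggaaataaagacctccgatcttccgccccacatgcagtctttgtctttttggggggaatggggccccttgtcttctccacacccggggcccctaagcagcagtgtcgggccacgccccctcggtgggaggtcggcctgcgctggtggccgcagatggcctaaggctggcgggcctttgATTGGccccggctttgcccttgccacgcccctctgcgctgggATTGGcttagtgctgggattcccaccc
SULT1E1: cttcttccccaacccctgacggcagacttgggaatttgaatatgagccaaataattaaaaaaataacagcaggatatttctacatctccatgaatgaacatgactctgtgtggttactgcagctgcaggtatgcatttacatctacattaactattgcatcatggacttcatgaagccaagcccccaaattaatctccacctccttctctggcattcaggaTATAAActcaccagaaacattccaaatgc
The windows of HSD17B4 and HSD17B8 each held 14 CG pairs, and that of SULT1E1 held 1, against a median of 11 over the 35116 windows of the table. SULT1E1 had a TATAAA at position -29 from the start, a motif in 10.7% of all windows, and HSD17B4 had the half-site, as TGACC, at position -22. A half-site was present in 32.6% of all windows and CCAAT, found in the HSD17B8 window in both cases as ATTGG, in 32%. The full palindrome GGTCANNNTGACC was in none of the windows of the 4 genes and in 0.0399% of all windows. A match or its absence describes these letters alone. STS has 5 listed starts, and which of them was used was not measured, so its windows are not shown.

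Levels are RPKM values as deposited by the authors, a read density that accounts for transcript length and sequencing depth. They were divided by a library scale factor of 0.938 to 1.05 and are called scaled RPKM. Because RPKM is per length, levels are set side by side between genes. How reads that match several genes were counted was not stated, and the genes differ in shared sequence, so the order between genes is uncertain to that extent. Depth was re-estimated from the steps between low values at 17.4 to 29.4 M reads per library. Luminal breast markers (GATA3, FOXA1, SPDEF, TRPS1 and KRT19) summed to 2260 to 3812 scaled RPKM in T-47D and 115 to 161 in ECC-1, and Müllerian markers (PAX8, MSX1, EMX2, SOX17 and HOXA10) to 0.439 to 0.745 in T-47D and 328 to 372 in ECC-1, as the labels name the lines. Sums of 5 leukocyte markers stayed at or below 1.27 and of 5 endothelial markers at or below 1.88 in both lines, and no marker in either list was at 0 in all libraries of a line. Of 5 fibroblast markers, which summed to 16.9 to 31.8 in T-47D and 9.38 to 15.5 in ECC-1, COL1A1 was above 1 scaled RPKM in both lines, and DCN and LUM reached 1.19 and 1.18 in T-47D and stayed at or under 0.102 and 0.0206 in ECC-1. COL3A1 went the other way, at 0.0364 to 0.289 in T-47D and 0.345 to 0.421 in ECC-1, and COL1A2 stayed at or under 0.305. The endothelial marker VWF stood at 0.0628 to 0.698 in T-47D and 1.03 to 1.75 in ECC-1. A part of other cells in any result was not tested. The first E2 library of each line stood apart, with a median correlation across genes with its own line of 0.980 in T-47D and 0.987 in ECC-1, against 0.989 to 0.997 in the other 14 libraries.

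The lines carried different sets of these transcripts. In T-47D the order of median levels was HSD17B4 (53.3 scaled RPKM), HSD17B12 (36.9), HSD17B8 (29.1), HSD17B1 (15.5), SULT1A1 (14.7) and STS (3.85), with HSD17B14 (0.122), HSD17B2 (0.0202) and SULT1E1 (0) at the bottom. In ECC-1 it was HSD17B12 (68.1), HSD17B4 (37.1), SULT1A1 (13.4), HSD17B8 (9.03), HSD17B14 (4.40), STS (2.24), HSD17B1 (1.00) and SULT1E1 (0.505), with HSD17B2 at 0. The ranges over the 8 libraries of T-47D overlapped between HSD17B12 and HSD17B8, between HSD17B1 and SULT1A1, and among the lowest 3 genes. In ECC-1 the ranges of HSD17B1 and SULT1E1 overlapped, and all other neighbours were apart. In bulk RNA, fewer cells that express a gene and less of its RNA per cell cannot be told apart.

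**Figure D1:**
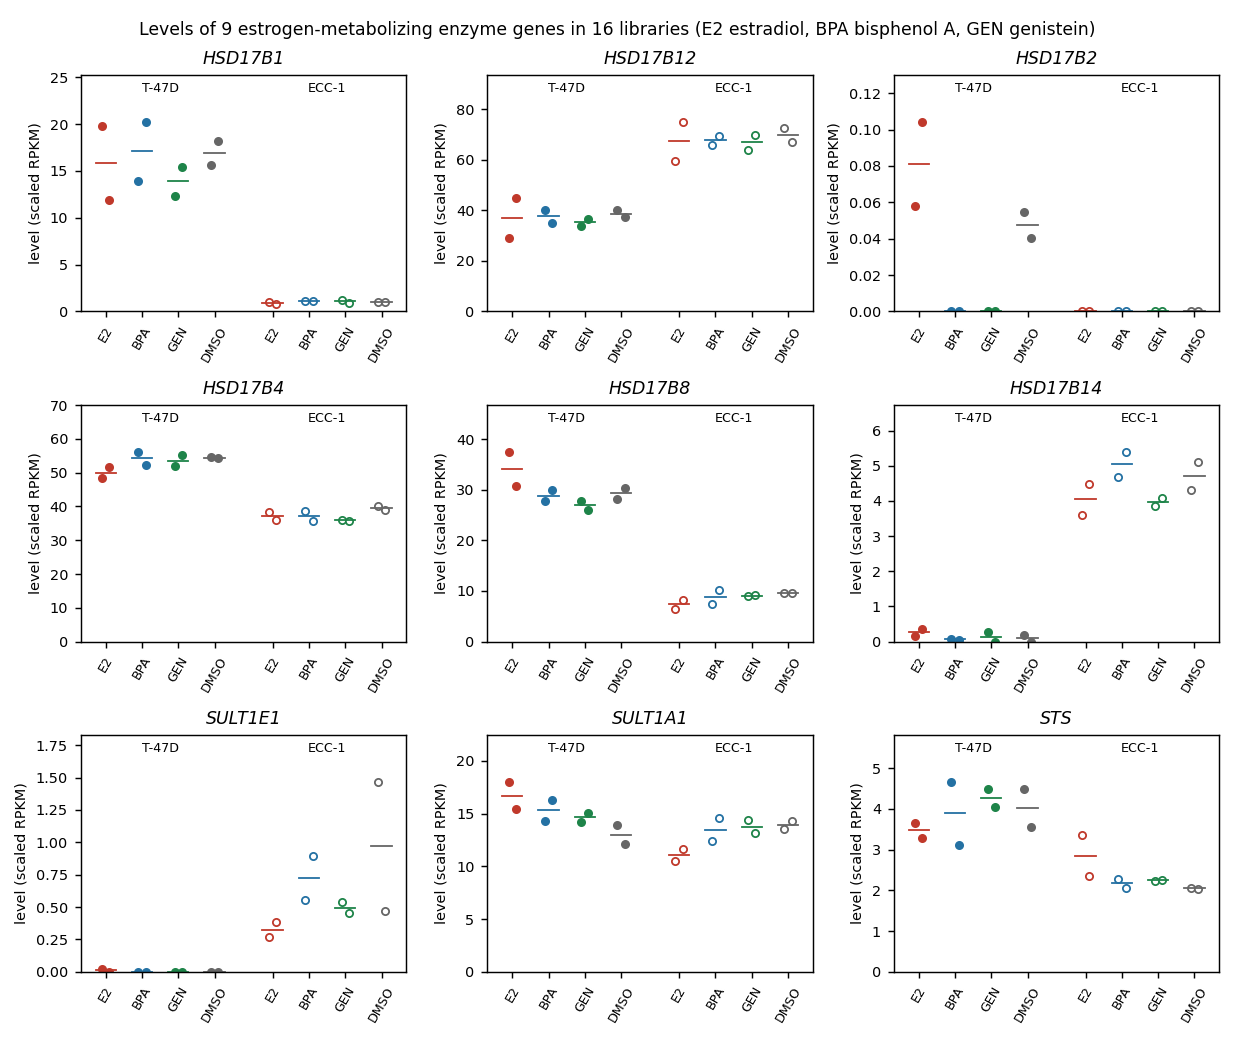
Level of each of the 9 genes, in scaled RPKM, in the 16 libraries. Points are libraries (filled T-47D, open ECC-1), lines are means of 2 libraries, and each panel has its own vertical axis from 0. HSD17B1 and HSD17B8 are higher in every T-47D library and HSD17B12 and HSD17B14 in every ECC-1 library, whatever the treatment.

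HSD17B1 is the classical enzyme that reduces estrone to estradiol, and it was far higher in T-47D. Over all treatments it ranged from 11.9 to 20.2 scaled RPKM in the 8 T-47D libraries, with a median of 15.5, against 0.777 to 1.26 in the 8 ECC-1 libraries, with a median of 1.00. The DMSO libraries alone held 15.6 and 18.2 in T-47D, against 0.965 and 0.993 in ECC-1. No library of either line came near the other line. In limma on log2(scaled RPKM + 0.5), with p-values adjusted by Benjamini-Hochberg over 13827 genes, the difference in DMSO, T-47D minus ECC-1, was 3.55 (SE 0.222, adjusted p = 9.67e-10), an 11.7-fold higher value in T-47D after the pseudocount is added. Shared sequence was taken from a GENCODE transcript of the gene that is not paired with the RefSeq row measured. Of the 50-base windows of that transcript, 45% also occurred in transcripts of other annotated genes. The share was 42.4% in AC067852.2 and 8.47% in the pseudogene HSD17B1P1, so reads of these could be counted with HSD17B1.

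HSD17B12, which can also reduce estrone but works mainly as a 3-ketoacyl-CoA reductase in the elongation of long fatty acids, went the other way. It measured 40.1 and 37.2 scaled RPKM in the T-47D DMSO libraries, against 72.5 and 66.9 in the ECC-1 DMSO libraries. Over all treatments the highest T-47D library (45.0) lay below the lowest ECC-1 library (59.6). The log2 difference in DMSO was -0.84 (SE 0.170, limma adjusted p = 0.000335). Of its 50-base windows, 25.3% also occurred in other annotated genes, 17.6% in AC068205.2 and 7.69% in AC087521.4. The 2 reductive genes were thus 1 higher and 1 lower in T-47D, and HSD17B12 had the higher listed level of the 2 in both lines.

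Among the oxidative enzymes, HSD17B8 was higher in T-47D and HSD17B14 lower. HSD17B8 encodes a mitochondrial enzyme that oxidizes estradiol in vitro and forms part of the ketoacyl reductase of mitochondrial fatty acid synthesis. It stood at 28.2 and 30.3 scaled RPKM in the T-47D DMSO libraries, against 9.59 and 9.63 in those of ECC-1, with a log2 difference of 1.56 (SE 0.151, limma adjusted p = 1.64e-07). HSD17B14, a cytosolic dehydrogenase that oxidizes estradiol in vitro, stood at 0.187 and 0 in the T-47D DMSO libraries, against 4.32 and 5.12 in those of ECC-1. Its highest T-47D library over all treatments was 0.355, an estimated 8.8 reads, and its lowest ECC-1 library was 3.60. The log2 difference of -3.15 (SE 0.210, limma adjusted p = 2.04e-09) is smaller in size than the ratio of the levels because of the pseudocount. The gene passed the filter on low values through its ECC-1 libraries alone, so it had to differ in this direction.

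HSD17B4, the peroxisomal multifunctional enzyme of fatty acid β-oxidation that also oxidizes estradiol, was the steadiest of the 7 tested genes. Its SD over the 8 libraries of a line was 0.0678 on the log2 scale in T-47D and 0.0679 in ECC-1, against medians over all tested genes of 0.164 and 0.143. Those medians cover genes of every level past the filter, and no comparison with genes of like level was made. It held 54.6 and 54.3 scaled RPKM in the T-47D DMSO libraries, against 40.2 and 39.0 in those of ECC-1, and the lines did not overlap in any treatment. The log2 difference was 0.45 (SE 0.103, limma adjusted p = 0.000874). HSD17B2, the main enzyme that inactivates estradiol in secretory endometrium, was listed at 0 in all 8 ECC-1 libraries and in 4 of 8 T-47D libraries. Its highest value was 0.104 scaled RPKM in 1 T-47D E2 library, an estimated 3 reads. A count of 3 reads in a library would have stood at 0.0673 to 0.125 scaled RPKM, which is the upper limit where the gene was listed at 0, and its other 3 values above 0 rest on an estimated 1 to 2 reads. Of its 50-base windows, 9.96% also occurred in AC092142.1, against 0% for HSD17B4, HSD17B8 and HSD17B14.

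The sulfotransferase genes had unlike patterns. SULT1E1 encodes the estrogen sulfotransferase, which acts on estradiol and estrone at the lowest concentrations. It was listed at 0 in 7 of 8 T-47D libraries and at 0.0234 scaled RPKM, an estimated 1 read, in the eighth, against 0.270 to 1.46 in the 8 ECC-1 libraries. The lines did not overlap, but the gene fell under the filter on low values and no fold is given against a group at 0. In ECC-1 it measured 0.270 and 0.381 in the E2 libraries, 0.557 and 0.897 in the BPA libraries, 0.537 and 0.451 in the GEN libraries and 1.46 and 0.473 in the DMSO libraries. The highest value rests on 1 DMSO library with an estimated 55.6 reads, and the E2 libraries, with an estimated 9 and 12.9 reads, were the lowest pair. Of its 50-base windows, 23.6% also occurred in AC108941.2.

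SULT1A1, a phenol sulfotransferase that acts on many drugs and, at higher concentrations, on estrogens, was at like levels in both lines without hormone. It held 13.9 and 12.1 scaled RPKM in the T-47D DMSO libraries, against 13.6 and 14.3 in those of ECC-1. The log2 difference was -0.10 (95% interval -0.38 to 0.18, limma adjusted p = 0.499), so a difference larger than the interval allows was not seen. Of its 50-base windows, 35.2% also occurred in other genes, 25% in the near copies SULT1A3 and SULT1A4, and how reads that match several places were counted was not stated in the sources used here. All SULT1A1 values are uncertain to that extent.

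STS, the sulfatase of the endoplasmic reticulum that frees estrone from its sulfate, was low in both lines and higher in T-47D without hormone. It held 4.49 and 3.55 scaled RPKM in the T-47D DMSO libraries, against 2.06 and 2.03 in those of ECC-1. The log2 difference was 0.82 (SE 0.179, limma adjusted p = 0.000683). Over all treatments the lines overlapped, since the first ECC-1 E2 library, at 3.35, lay above the lowest T-47D library, at 3.12.

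Across the tested genes, 6 of 7 passed the limma test between the lines in DMSO, 4 higher in T-47D (HSD17B1, HSD17B8, HSD17B4 and STS) and 2 lower (HSD17B12 and HSD17B14). The lines are so unlike that 76.7% of all 13827 genes passed, 39.6% higher and 37.1% lower, and a share of this size is near that background. HSD17B14 counts among the 6 although the filter fixed its direction. Of the 6 genes that reached 1 RPKM in at least 2 libraries of each line, 5 passed, 4 higher in T-47D and 1 lower, against 73.1% of the 11447 such genes, 37.7% higher and 35.4% lower. Their median log2 difference was 0.64, against 0.04 over all such genes. With all 8 libraries of each line, 5 of 7 genes did not overlap, 3 higher in T-47D and 2 lower, against 67.4% of all genes, 34.9% higher and 32.6% lower. Without HSD17B14 it was 4 of 6, against 62.6% of the genes past the filter in each line, 32.4% higher and 30.2% lower. The differences of HSD17B1 and HSD17B14 exceeded 2 in size on the log2 scale in every treatment, whereas those of HSD17B4 stayed between 0.43 and 0.57.

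The differences between the lines were measured again under each treatment, where 6 of 7 genes passed every time. HSD17B14 counts among the 6 each time, although the filter on low values fixed its direction. The background was 75% of all tested genes under E2, 77.4% under BPA and 77.4% under GEN. The share over genes past the filter in each line was taken in DMSO alone. HSD17B1 was higher in T-47D by 3.51 under E2, 3.43 under BPA and 3.20 under GEN, and HSD17B8 by 2.14, 1.67 and 1.52. HSD17B12 was lower in T-47D, with differences of -0.88, -0.84 and -0.92 in the same order. HSD17B14, with its side fixed by the filter, had -2.58, -3.30 and -2.84. HSD17B1, HSD17B4, HSD17B8 and HSD17B12 passed under all 3. Besides these and HSD17B14, the other call was STS or SULT1A1. STS passed under BPA (0.69, adjusted p = 0.00249) and GEN (0.80, adjusted p = 0.000841) but not under E2 (0.26, 95% interval -0.12 to 0.64, adjusted p = 0.203). SULT1A1 passed under E2 (0.57, SE 0.131, limma adjusted p = 0.00108) but not under BPA (0.18, adjusted p = 0.228) or GEN (0.09, adjusted p = 0.541). The STS difference under BPA rests in part on the first T-47D BPA library, without which it was 0.44 (adjusted p = 0.0583), and that under E2 passed without the first ECC-1 E2 library (0.47, adjusted p = 0.046).

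**Figure D2:**
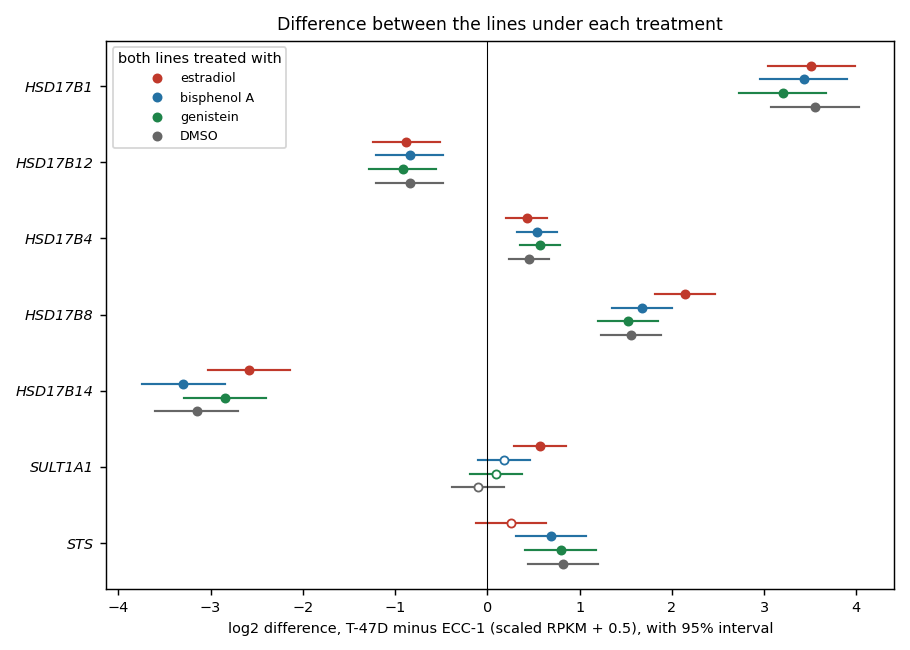
Log2 difference between the lines, T-47D minus ECC-1, for the 7 tested genes under each treatment, with 95% intervals. Filled points passed an adjusted p of 0.05. HSD17B1 and HSD17B14 lie farthest from 0 on opposite sides, and SULT1A1 passes under estradiol alone. HSD17B14 passed the filter on low values through ECC-1 alone, so its side was fixed.

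The treatments asked whether 8 h of an estrogen receptor ligand moved these transcripts within a line. The known estrogen-responsive genes GREB1, PGR, MYC and TFF1 gave the response of each line to the ligands. With E2, 4 of 4 rose in T-47D and 3 of 4 in ECC-1, and with GEN, 4 of 4 rose in T-47D and 2 of 4 in ECC-1. TFF1 passed the filter on low values through 3 T-47D libraries, with E2 or GEN, so it had to be higher there. In ECC-1, TFF1 was at 0 in 7 of 8 libraries, with a highest value of 0.0860 scaled RPKM. PGR passed the filter through T-47D alone and stayed under 1 RPKM in every ECC-1 library. Its ECC-1 means were 0.0710 scaled RPKM with DMSO, 0.774 with E2 and 0.520 with GEN. With BPA, 0 of 4 passed limma in either line, and 2 of 4 in T-47D and 1 of 4 in ECC-1 had an unadjusted p under 0.05. GREB1 stood at 60.9 ± 5.15 scaled RPKM with E2 in T-47D and 12 ± 1.10 with DMSO (SD, n = 2 each). All 3 comparisons within a line share the same 2 DMSO libraries.

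None of the 7 tested genes passed the limma test in any of the 6 comparisons of a treatment with DMSO. In T-47D 1 gene had an unadjusted p under 0.05 with E2, 0 with BPA and 0 with GEN. In ECC-1 it was 2 genes with E2, 0 with BPA and 0 with GEN. Of all 13827 genes, 2051 had such a p in T-47D with E2, 116 with BPA and 801 with GEN. In ECC-1 it was 2125, 347 and 1061 in the same order. After adjustment, the background share of genes called was 3.22% with E2, 0% with BPA and 0.803% with GEN in T-47D. It was 1.89%, 0.195% and 0.969% in ECC-1 in the same order. At these shares fewer than 1 of 7 genes would be called. The median log2 difference of the 7 genes with E2 was -0.09 in T-47D and -0.09 in ECC-1, against -0.01 and 0.00 over all genes. The 95% intervals, which are not adjusted, had a median half-width of 0.33 over all genes. Changes smaller than that were mostly not detectable with 2 libraries a group, and larger ones could also miss the adjusted threshold. GREB1 with GEN in ECC-1, at a log2 difference of 0.76, did not pass (limma adjusted p = 0.169).

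**Figure D3:**
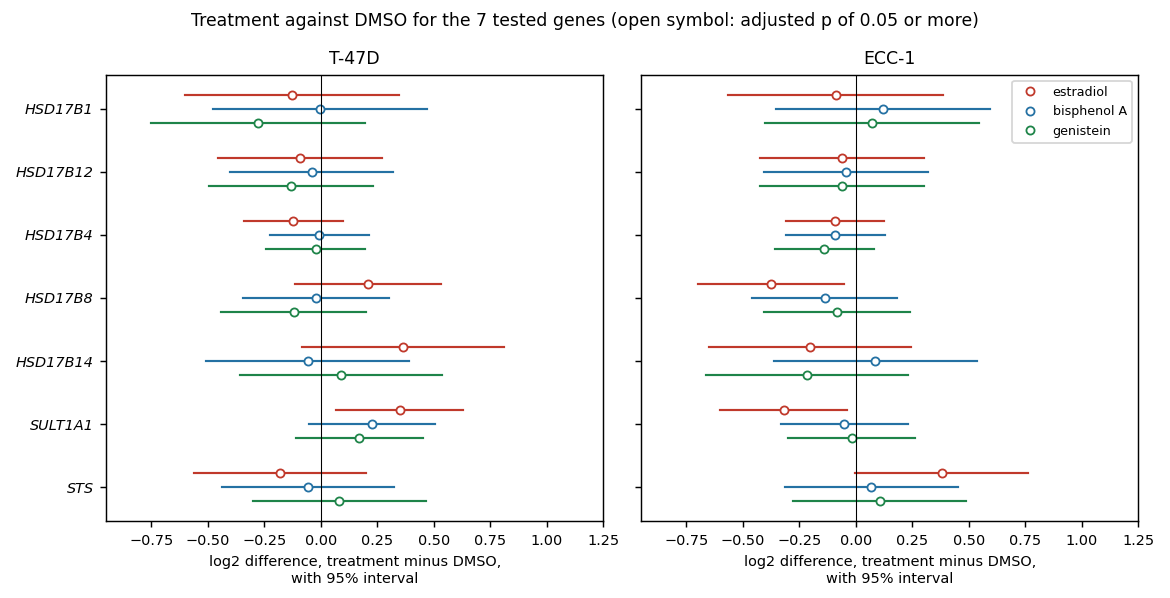
Log2 difference of each treatment minus DMSO for the 7 tested genes, T-47D on the left and ECC-1 on the right, with 95% intervals. Open points mark an adjusted p of 0.05 or more, which all points have. With estradiol, SULT1A1, HSD17B8 and HSD17B14 lie above 0 in T-47D and below 0 in ECC-1, and STS the other way.

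SULT1A1 had the lowest p-value with E2 in T-47D among the 7. In T-47D it measured 18 and 15.4 scaled RPKM with E2, 14.3 and 16.3 with BPA, 14.2 and 15.1 with GEN, and 13.9 and 12.1 with DMSO. In ECC-1 it measured 10.5 and 11.7 with E2, 12.4 and 14.6 with BPA, 14.4 and 13.1 with GEN, and 13.6 and 14.3 with DMSO. Both E2 libraries thus lay above both DMSO libraries in T-47D and below them in ECC-1. The log2 difference with E2 was 0.35 in T-47D (95% interval 0.07 to 0.63, limma adjusted p = 0.210) and -0.32 in ECC-1 (95% interval -0.60 to -0.04, limma adjusted p = 0.270).

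The opposite sides were tested directly as the E2 difference in T-47D minus that in ECC-1. For SULT1A1 it was 0.67 (95% interval 0.27 to 1.07), with an unadjusted p of 0.00266 and a limma adjusted p of 0.098, short of the threshold. Without the second T-47D E2 library it was 0.78 (adjusted p = 0.0162) and without the second ECC-1 E2 library 0.74 (adjusted p = 0.0308), both past the threshold, and both of these leave the library that stood apart as the only E2 sample of its line. Without the first E2 library of each line it was 0.49 (adjusted p = 0.342). In T-47D the difference with E2 alone was 0.46 (adjusted p = 0.0364) without the second E2 library, and 0.24 (adjusted p = 0.397) without both first E2 libraries. The near copies SULT1A3 (0.11 in T-47D and -0.14 in ECC-1 with E2) and SULT1A2 (0.11 and -0.36) did not pass either. Their E2 difference in T-47D minus that in ECC-1 was 0.25 for SULT1A3 (limma adjusted p = 0.512) and 0.46 for SULT1A2 (limma adjusted p = 0.346).

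SULT1A1 has 5 RefSeq rows. The row used ranged from 12.1 to 18 scaled RPKM in T-47D and 10.5 to 14.6 in ECC-1, and the lowest row from 6.61 to 9.19 and 5.68 to 7.04. Over the 16 libraries, centred within each line, the 3 tested genes with the highest Pearson r with SULT1A1 were RAB4B (0.86), URM1 (0.85) and TBCB (0.85), and 0.174% of tested genes exceeded 0.8. These points share their library and its depth.

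HSD17B8 had the same layout as SULT1A1 with E2. In T-47D it measured 37.4 and 30.7 scaled RPKM with E2, 27.8 and 29.9 with BPA, 27.7 and 26.1 with GEN, and 28.2 and 30.3 with DMSO. In ECC-1 it measured 6.51 and 8.14 with E2, 7.38 and 10.2 with BPA, 8.95 and 9.11 with GEN, and 9.59 and 9.63 with DMSO. The E2 libraries were the highest pair in T-47D and lay below both DMSO libraries in ECC-1, in each case with the first E2 library farther out. The log2 difference with E2 was 0.21 in T-47D (95% interval -0.11 to 0.53, adjusted p = 0.559) and -0.38 in ECC-1 (95% interval -0.70 to -0.05, limma adjusted p = 0.257).

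Between the lines, the E2 difference of HSD17B8 was 0.58 higher in T-47D (95% interval 0.13 to 1.04, limma adjusted p = 0.204), which did not pass. It was 0.73 (adjusted p = 0.0375) without the second T-47D E2 library, 0.74 (adjusted p = 0.046) without the second ECC-1 E2 library and 0.29 (adjusted p = 0.745) without both first E2 libraries. The genes most like HSD17B8 over the 16 libraries, centred within each line, were PPCDC (r = 0.95), TP53TG1 (0.94) and TMEM219 (0.93), and 2.29% of tested genes exceeded 0.8. These points share their library and its depth. HSD17B8 lay farthest out in the first E2 library of each line, which stood apart, and how far r rests on those libraries was not tested.

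STS lay the other way round. With E2 it measured 3.66 and 3.28 scaled RPKM in T-47D, against 4.49 and 3.55 with DMSO, and 3.35 and 2.36 in ECC-1, against 2.06 and 2.03 with DMSO. In ECC-1 both E2 libraries lay above both DMSO libraries, and in T-47D the pairs overlapped. The log2 difference with E2 was -0.18 in T-47D (adjusted p = 0.684) and 0.38 in ECC-1 (95% interval -0.003 to 0.76, limma adjusted p = 0.326). The E2 difference in T-47D minus that in ECC-1 was -0.56 (95% interval -1.10 to -0.02, limma adjusted p = 0.286) and -0.41 (adjusted p = 0.721) without both first E2 libraries. With BPA and GEN, STS held 4.65 and 3.12 and then 4.48 and 4.04 in T-47D, and 2.29 and 2.06 and then 2.23 and 2.25 in ECC-1.

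Over all 7 genes, 0 passed the limma test of a treatment effect that differs between the lines. With E2 3 had an unadjusted p under 0.05 (SULT1A1, HSD17B8 and STS), against 0 with BPA and 0 with GEN. Of all 13827 genes, 2278 had an unadjusted p under 0.05 with E2, 195 with BPA and 649 with GEN. After adjustment, 1.73%, 0.0434% and 0.586% of all genes were called in these 3 tests.

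HSD17B1, HSD17B12 and HSD17B4 gave no such layout. HSD17B1 in T-47D measured 19.8 and 11.9 scaled RPKM with E2, 13.9 and 20.2 with BPA, 12.4 and 15.4 with GEN, and 15.6 and 18.2 with DMSO, so that replicates spread as widely as treatments. HSD17B12 in T-47D measured 29 and 45.0 with E2, against 40.1 and 37.2 with DMSO, with the first E2 library the lowest and the second the highest of the line. The log2 differences of HSD17B1, HSD17B12 and HSD17B4 from DMSO ran from -0.28 to 0.12 over both lines and all treatments. HSD17B14 in T-47D with E2, at 0.165 and 0.355 against 0.187 and 0 with DMSO (0.36, adjusted p = 0.450), rests on an estimated 4.9 and 8.8 reads against 5.9 and 0.

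GEN and BPA were given at the same dose and time and were set against each other, 7 genes in each of 2 lines. No gene passed limma, against a background of 0.405% called in T-47D and 0.0434% in ECC-1. Of the 7 genes, 0 had an unadjusted p under 0.05 in either line. Of all 13827 genes, 599 had such a p in T-47D and 206 in ECC-1. On the log2 scale, GEN minus BPA ran from -0.27 for HSD17B1 to 0.15 for HSD17B14 in T-47D, and from -0.30 for HSD17B14 to 0.05 for HSD17B8 in ECC-1. The narrowest intervals were those of HSD17B4, -0.23 to 0.20 in T-47D and -0.27 to 0.17 in ECC-1. The widest were those of HSD17B1, -0.75 to 0.20 in T-47D and -0.52 to 0.43 in ECC-1, so the effects of the compounds on this gene may differ by that much. GEN is an isoflavone and BPA a bisphenol. E2 was given at 10 nM, and its values stand beside the others without a test between them.

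Other genes of steroid handling came from 5 lists, of which 31 genes were tested. In DMSO, 15 of the 31 passed between the lines, below the 76.7% of all genes (39.6% higher and 37.1% lower in T-47D). Of these 15, 8 reached 1 RPKM in 1 line alone and so had to be higher there, namely HSD17B11, AKR1C3, SULT1C2, AKR1C1, AKR1C2, AKR1C4 and ABCC4 in ECC-1 and SLCO3A1 in T-47D. Of the 23 that reached it in at least 2 libraries of each line, 7 passed, against 73.1% of all such genes. Among 7 tested of 8 other 17β-hydroxysteroid dehydrogenases, 0 were higher and 2 lower in T-47D with DMSO, both through the filter on low values. These were HSD17B11, at 0.0780 ± 0.0209 scaled RPKM in T-47D, against 15.2 ± 2.09 in ECC-1 (log2 difference -4.76, limma adjusted p = 1.23e-12), and AKR1C3, which reduces androstenedione and estrone, at 0.169 ± 0.0368 in T-47D, against 7.26 ± 0.127 in ECC-1 (SD, n = 2 each). Among 10 tested of 14 genes listed as other sulfation genes, 4 were higher in T-47D and 1 lower. That list also holds SUMF1 and SUMF2, sulfatase-modifying factor genes rather than sulfation genes, and both were among the 4. PAPSS2, which makes the sulfate donor, was higher by 3.11, at 39.1 ± 2.32 in T-47D, against 4.14 ± 1.16 in ECC-1. SUMF1, which activates sulfatases including that of STS, was higher by 3.04, at 69.0 ± 1.03 in T-47D, against 7.98 ± 0.680 in ECC-1. SULT1C2, which passed the filter through ECC-1 alone, was at 0.0176 ± 0.00471 in T-47D, against 2.74 ± 0.0791 in ECC-1.

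Of 17 genes for estrogen hydroxylation and glucuronidation, 3 were tested, and 1 was higher and 0 lower in T-47D. Of all tested genes, 39.6% were higher and 37.1% lower. CYP1B1, the estradiol 4-hydroxylase, stood at 44.9 ± 5.95 scaled RPKM in T-47D, against 3.48 ± 1.21 in ECC-1 (log2 difference 3.54, limma adjusted p = 7.31e-10). Of 14 genes for steroid synthesis and reduction, 7 were tested, and 4 were lower in T-47D. Of these, AKR1C1 and AKR1C2, which are near copies of each other and of AKR1C3, and AKR1C4 passed the filter through ECC-1 alone, and the other was SRD5A1. Aromatase, encoded by CYP19A1, was at or under 0.0198 scaled RPKM in every library. Of 12 genes for transport of steroid conjugates, 10 were matched and 4 tested, with 1 higher (SLCO3A1) and 2 lower (ABCC4 and ABCC3) in T-47D, of which ABCC3 alone passed the filter in both lines. Over the genes of a list that passed the filter in both lines, the median log2 difference was -0.36, 0.24, 0.83, -0.14 and -0.69 for these 5 lists in the order given, against 0.04 over all such genes.

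Within a line, 1 of the 31 tested genes of the 5 lists passed a comparison of a treatment with DMSO, in the comparison of E2 with DMSO in ECC-1, where 1.89% of all genes were called, so the count is near the background. ABCC4, a transporter that exports steroid conjugates among other anions, was higher with E2 in ECC-1, at 9.40 ± 0.815 scaled RPKM with E2 and 6.22 ± 0.144 with DMSO (log2 difference 0.56, SE 0.125, limma adjusted p = 0.0328, SD, n = 2 each). It stood at or under 0.0259 in every T-47D library. No sulfation gene, other dehydrogenase, hydroxylation gene or synthesis gene on the lists passed in any of the 6 comparisons.

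**Figure D4:**
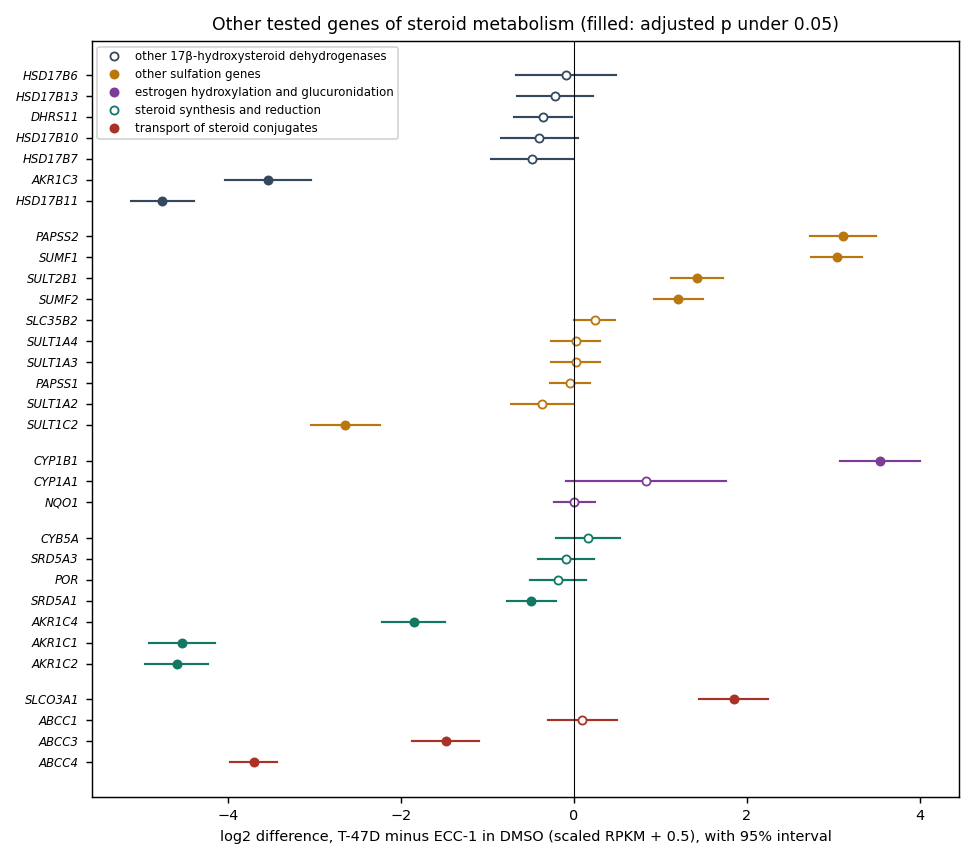
Log2 difference between the lines in DMSO, T-47D minus ECC-1, for the tested genes of the 5 lists, with 95% intervals and 1 colour per list. Filled points passed an adjusted p of 0.05. PAPSS2, SUMF1 and CYP1B1 lie above 3, and HSD17B11, AKR1C1 and AKR1C2 below -4. HSD17B11, AKR1C1 and AKR1C2 passed the filter on low values through ECC-1 alone, so their side was fixed.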

How the data were processed

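RNA-seq libraries of T-47D and ECC-1 cells, 16 in 8 groups of 2, were grouped by the labels. The authors deposited 1 table of RPKM values per library, each with 32062 RefSeq rows. Reads were aligned with Bowtie to hg19, per the submitters' processing notes, and libraries kept no strand, per the labels' protocols, so antisense reads cannot be told apart. How reads were counted was not stated in the sources used here. No annotation of that build was used, and coordinates are given only for RefSeq start-site windows on GRCh38.p14.

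For the 5983 symbols with several rows, the row with the highest mean was kept. Libraries were scaled by the median ratio over 7547 genes with at least 5 RPKM throughout. The 13827 genes that reached 1 RPKM in 2 or more libraries entered the fit as log2(scaled RPKM + 0.5), which understates changes of low genes. A group means model was fitted over all 16 libraries in limma 3.58.1 (R 4.3.3; 8 residual and 6.9 prior degrees of freedom, eBayes with trend), with 15 contrasts, Benjamini-Hochberg adjustment over all genes within each contrast and a threshold of 0.05. The procedure was tested on simulated data. Tables and figures were made with Python 3.11.15, pandas 2.3.3 and matplotlib 3.10.9.

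At the estimated depths, the share of values under 10 reads that came out whole, to a tolerance of 0.1 read, was 62.6 to 64.6%, where chance gives 20%, so read numbers are estimates and cover counting error only. For HSD17B1 no length could be assigned and no read number is given. Shared sequence was the share of 50-base windows of a gene's GENCODE transcript found in transcripts of other genes.

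The members and lists were chosen with earlier results of these data known. Named are all 9 members, and of each list up to 4 genes past the threshold with the largest difference in a comparison. CYP19A1, COL1A1, COL1A2, COL3A1, VWF, SULT1A2, SULT1A3 and SUMF2 were named after their values were seen. 1 gene of a list is not reported here. Counts over the genes past the filter in each line were added after the values were seen. For the 2 members with the highest F statistic over the 6 treatment contrasts, the 3 genes with the highest Pearson r are named. In all, 28 alternatives were tried: scaling, pseudocount, filter, row choice, array weights, fits on 1 line, the replicate block, both first E2 libraries omitted, and each library omitted.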

Additional observations from a re-analysis of the deposited data

How the results depend on the processing

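The 6 groups of comparisons were recomputed under up to 27 alternatives each. Leaving out each of the 16 libraries in turn, where the lone library of a group is assumed to vary like the other groups, gave 0 to 0 calls for treatments against DMSO in ECC-1, 0 to 1 in T-47D, 6 to 6 between the lines in DMSO, 17 to 19 between the lines under the other treatments (18 with all libraries), 0 to 2 for treatment effects that differ between the lines and 0 to 0 for GEN against BPA. The calls that appeared were those of SULT1A1 and HSD17B8 with E2 and of STS between the lines under E2, given above with the library left out. Under the other alternatives the treatment and GEN against BPA counts stayed at 0, and those between the lines ran from 4 to 8 in DMSO and from 13 to 22 under the other treatments. The lowest came with a mean of at least 5 RPKM, which drops STS and HSD17B14, and the highest with no filter, which adds SULT1E1, listed at 0 in nearly all T-47D libraries, and HSD17B2, whose calls rest on 1 to 3 estimated reads a library.

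The replicate number as a block left the 6 counts at 0, 0, 6, 18, 0 and 0. Same-numbered libraries deviated together with correlations from -0.224 to 0.408, not all over 0.1, so a pairing was not established, and none was stated. For the 24 called member values, 616 of 617 alternative values kept their direction and their side of the threshold, and 0 reversed. The exception was STS between the lines under BPA without the first T-47D BPA library, given above. The total includes HSD17B14, with 25 alternative values in each comparison between the lines, although the filter on low values fixed its direction. With 2 libraries a group, differences under about 0.33 on the log2 scale were mostly out of reach. That is the median half-width of an unadjusted 95% interval, and larger differences could also miss the adjusted threshold.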
